A study of Mus musculus with 21 samples.

Results

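The comparison described here is that of wild-type (WT) macrophages after 18 h of lipopolysaccharide (LPS) with untreated WT macrophages. Its members are the 8 libraries titled WT at 0 h or at 18 h (4 of each), out of 21 libraries in the series. The cells were bone marrow-derived macrophages, grown for 7 days from femur and tibia marrow of male C57Bl6/J mice aged 6 to 12 weeks, in medium with 15% L929-conditioned medium, which supplies the growth factor CSF1. After re-seeding they received LPS at 100 ng/ml for 18 h or were left untreated (0 h). The series also holds 4 WT libraries at 4 h and 9 libraries of cells labelled Nur77-KO (3 each at 0, 4 and 18 h). Nr4a1 is the gene of Nur77, a nuclear receptor. Cells of both genotypes were grown and treated by the same protocol, and for the labelled-KO cells the genotype field says cre. The labels do not say whether numbered libraries came from separate mice, so p-values measure the spread between libraries, which may be technical. They also do not give the hour of harvest, nor say whether the 0 h cells were kept in culture until the 18 h cells were lysed.

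LPS, a component of the outer membrane of Gram-negative bacteria, is sensed by CD14, MD-2 and Toll-like receptor 4 (TLR4). The adaptor MyD88 then leads to NF-kB and AP-1 and to early cytokine genes, and the adaptor TRIF to IRF3 and the gene of interferon beta. Secreted interferon acts back on the same cells through a complex of STAT proteins and IRF9, which binds a promoter element called the interferon-stimulated response element (ISRE). The response is known to induce its own inhibitors, such as the NF-kB inhibitor proteins and the cytokine interleukin-10 (IL-10), alongside the inflammatory genes.

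The 8 libraries held 12500551 to 26400142 counts on the 1 transcript kept per gene, out of 24092487 to 54772031.5 deposited counts over all transcripts. Values below are CPM, reads scaled to a common library size with TMM factors, and libraries are given in the order of their numbers, 1 to 4. On log2 CPM the first principal component carried 89.3% of the variance among the 8 libraries and separated 0 h from 18 h. The 14 macrophage markers summed to 23288 to 24298 CPM at 0 h and 16701 to 18363 CPM at 18 h. The 15 stromal markers summed to 16 to 247 CPM at 0 h, with number 2 the highest, and to 25.7 to 82.2 CPM at 18 h. Summed neutrophil markers went up, from 128 to 156 CPM at 0 h to a range of 407 to 492 CPM at 18 h, as did monocyte markers (415 to 587 CPM at 0 h and 2069 to 2723 CPM at 18 h) and dendritic cell markers (48.8 to 66 CPM at 0 h and 548 to 766 CPM at 18 h). Most of the monocyte sum at 18 h was Ms4a4c, with a mean of 2155 CPM, and most of the dendritic cell sum was Bst2, with 651 CPM. Of tested members 4 of 9 neutrophil markers rose and none fell, 5 of 10 monocyte markers rose and 3 fell, and 3 of 8 dendritic cell markers rose and 2 fell. Over all tested genes 34.8% rose and 36.3% fell, by the test given below. Sums went down for T cell (349 to 405 CPM at 0 h and 5.43 to 10.3 CPM at 18 h), erythroid (114 to 148 CPM at 0 h and 29.8 to 35 CPM at 18 h), megakaryocyte (141 to 219 CPM at 0 h and 50.2 to 72.2 CPM at 18 h) and osteoclast markers (165 to 222 CPM at 0 h and 54.6 to 66.2 CPM at 18 h). The part of other cell types in the results was not tested. NK cell markers did not exceed 0.122 CPM in sum in any of the 8 libraries, and mast cell and basophil markers did not exceed 0.796 CPM. Number 1 at 0 h held the highest level of several interferon-stimulated genes before LPS, among them Ifit1 (63.2, 26.8, 41.2 and 36.6 CPM in numbers 1 to 4). Bulk RNA cannot tell apart a change in the number of cells of a type and a change in RNA per cell.

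At 18 h 8913 of 12529 tested genes (71.1%) passed edgeR's quasi-likelihood test against 0 h (p adjusted by Benjamini and Hochberg's method, threshold 0.05), and such genes are said to have risen or fallen. Of these, 4359 rose (34.8% of tested genes) and 4554 fell (36.3%), so 48.9% of the calls were rises. Upper-quartile scaling moved the median log2 fold change over all tested genes from -0.05 to -0.23 and the share of rises among calls to 38.6%, and the directions of small changes below are relative to that shift. Rises and falls of at least 4-fold numbered 904 (7.22%) and 982 (7.84%), and those of at least 16-fold 319 (2.55%) and 233 (1.86%). The 4 libraries at 18 h lay wholly above the 4 at 0 h for 4052 genes (32.3%) and wholly below for 4272 (34.1%). The reads themselves were redistributed: Ctsb, encoding the lysosomal protease cathepsin B, took the largest share of counts at 0 h (2.00%) and 0.824% at 18 h. The share of Fth1, the ferritin heavy chain that stores iron, rose from 0.847% to 2.99%, the largest share at 18 h. Rsad2, encoding the antiviral enzyme viperin, came second at 18 h with 1.71% of counts, and Saa3, a serum amyloid A protein, had 0.864%. These shares are of the counts on kept transcripts and are not corrected for transcript length.

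**Figure D1:**
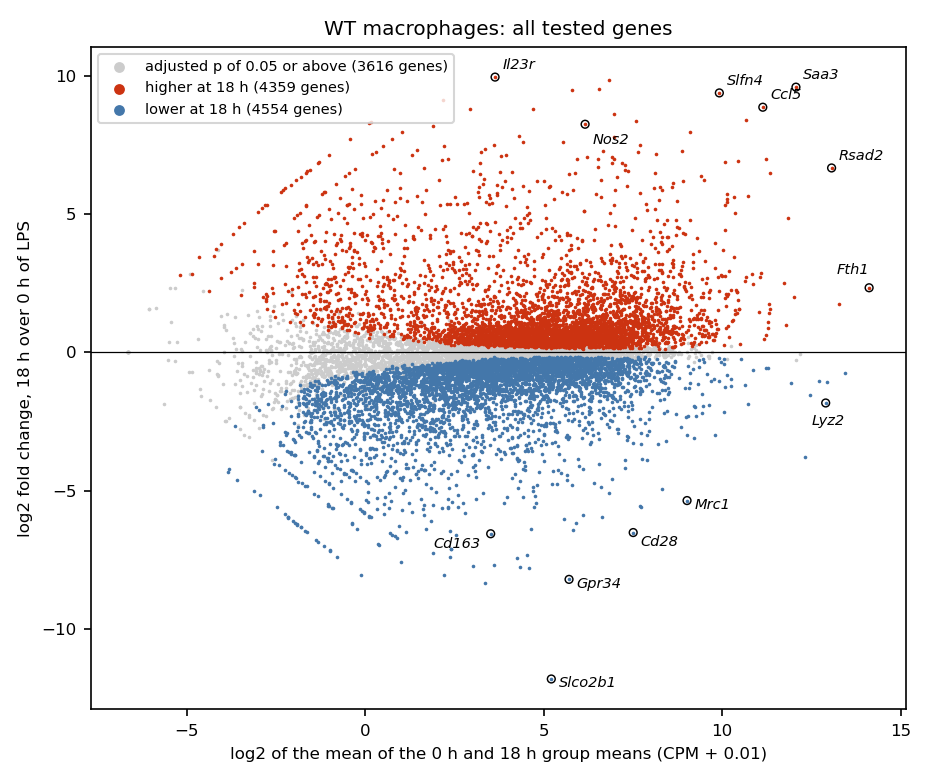
Log2 fold change of WT macrophages at 18 h over 0 h of LPS (vertical axis) against the log2 of the mean level over both groups in CPM with an offset of 0.01 (horizontal axis), 1 point per tested gene, with 4 libraries per group. Rises (4359, red) and falls (4554, blue) are spread over most of the range of levels, and circled genes such as Saa3, Rsad2, Fth1, Gpr34 and Mrc1 are described in the text.

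The largest rises joined acute phase, chemokine, prostaglandin and immune receptor genes. Il23r, a subunit of the receptor of interleukin-23, was at 0.0266, 0, 0 and 0.0469 CPM in the 4 libraries at 0 h and at 29.5, 20.5, 21.6 and 27.6 CPM at 18 h, and 2 counts in all before LPS gave a ratio of 1339 (95% counting interval 370.3 to 11069). Tarm1, an activating receptor of myeloid cells, was at 0.133, 0.109, 0.0876 and 0.797 CPM at 0 h and 192, 166, 169 and 216 CPM at 18 h (log2 fold change 9.5, SE 0.46, edgeR adjusted p = 7.9e-14). Every library at 18 h exceeded every library at 0 h for both genes. Groups without overlap were a condition for naming the 14 largest rises and the 14 deepest falls, so their separation is no added result. Others of the 14 largest rises with at least 20 CPM were Lipg, an endothelial-type lipase (log2 fold change 9.48), Upp1, the uridine-salvaging enzyme uridine phosphorylase (8.79), and Clic5, an intracellular chloride channel protein (7.83).

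The deepest falls were in transporters, receptors and lipid genes of the resting cell. Slco2b1, an organic anion transporter, was at 68.8, 74.5, 73.6 and 79.3 CPM at 0 h and 0, 0.0391, 0 and 0 CPM at 18 h, and its 1 count in all at 18 h gave a ratio of 0 h over 18 h of 5278 (95% counting interval 947 to 208506). Gpr34, a receptor for lysophosphatidylserine, fell from 106, 98.8, 117 and 94.8 to 0.488, 0.352, 0.402 and 0.17 CPM (log2 fold change -8.2, SE 0.26, edgeR adjusted p = 8.0e-17). Hpgd, which inactivates prostaglandins, fell from 21.3, 18.6, 25.8 and 15.5 to 0.061, 0.0391, 0 and 0.113 CPM (log2 fold change -8.35, SE 0.48, edgeR adjusted p = 1.3e-12). For these genes every library at 18 h lay below every library at 0 h, again a condition of naming them. Among the 14 deepest falls were also Cyp27a1, which makes the oxysterol 27-hydroxycholesterol (log2 fold change -6.01), Lpin1, the phosphatidate phosphatase lipin 1 (-6.37), Rasgrp3, a Ras activator (-7.75), and Cd28, known as a T cell costimulatory receptor (-6.51). Cd28 was at 329.9 to 382 CPM at 0 h, where the defining T cell genes Cd3e, Cd3d and Cd3g were not tested for lack of counts.

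The genes were next read by role, in 44 lists whose tested members are counted below. These lists were chosen with results of these libraries known, so their directions are not independent evidence. Each list count below is to be set beside the shares over all tested genes, and counts near those shares are no trait of a list. Against the shares of 34.8% rises and 36.3% falls over all tested genes, 16 of the 18 tested proinflammatory cytokines rose and 1, Osm, fell, with a median log2 fold change of 3.37. Tnf was at 6.57, 7.2, 10.6 and 11.4 CPM at 0 h and 246, 217, 191 and 209 CPM at 18 h (log2 fold change 4.61, SE 0.19, edgeR adjusted p = 7.1e-15). Il6 was at 0.133, 0, 0.569 and 0.422 CPM at 0 h and 24.7, 17.9, 17.5 and 18.6 CPM at 18 h (log2 fold change 6.26, SE 0.35, edgeR adjusted p = 6.6e-13). Both stayed above every untreated library, and both lay far below their level at 4 h, when Tnf had reached 2063 to 2927 CPM and Il6 444 to 505 CPM. Il12b, the subunit shared by interleukins 12 and 23, showed the same order of levels, with 0.0266 to 0.701 CPM at 0 h, 221 to 525 CPM at 4 h and 14.8 to 25.8 CPM at 18 h. Ifnb1, interferon beta, had 3 counts in all at 0 h and 341 at 18 h, a ratio of 173 (95% counting interval 58.6 to 841).

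**Figure D2:**
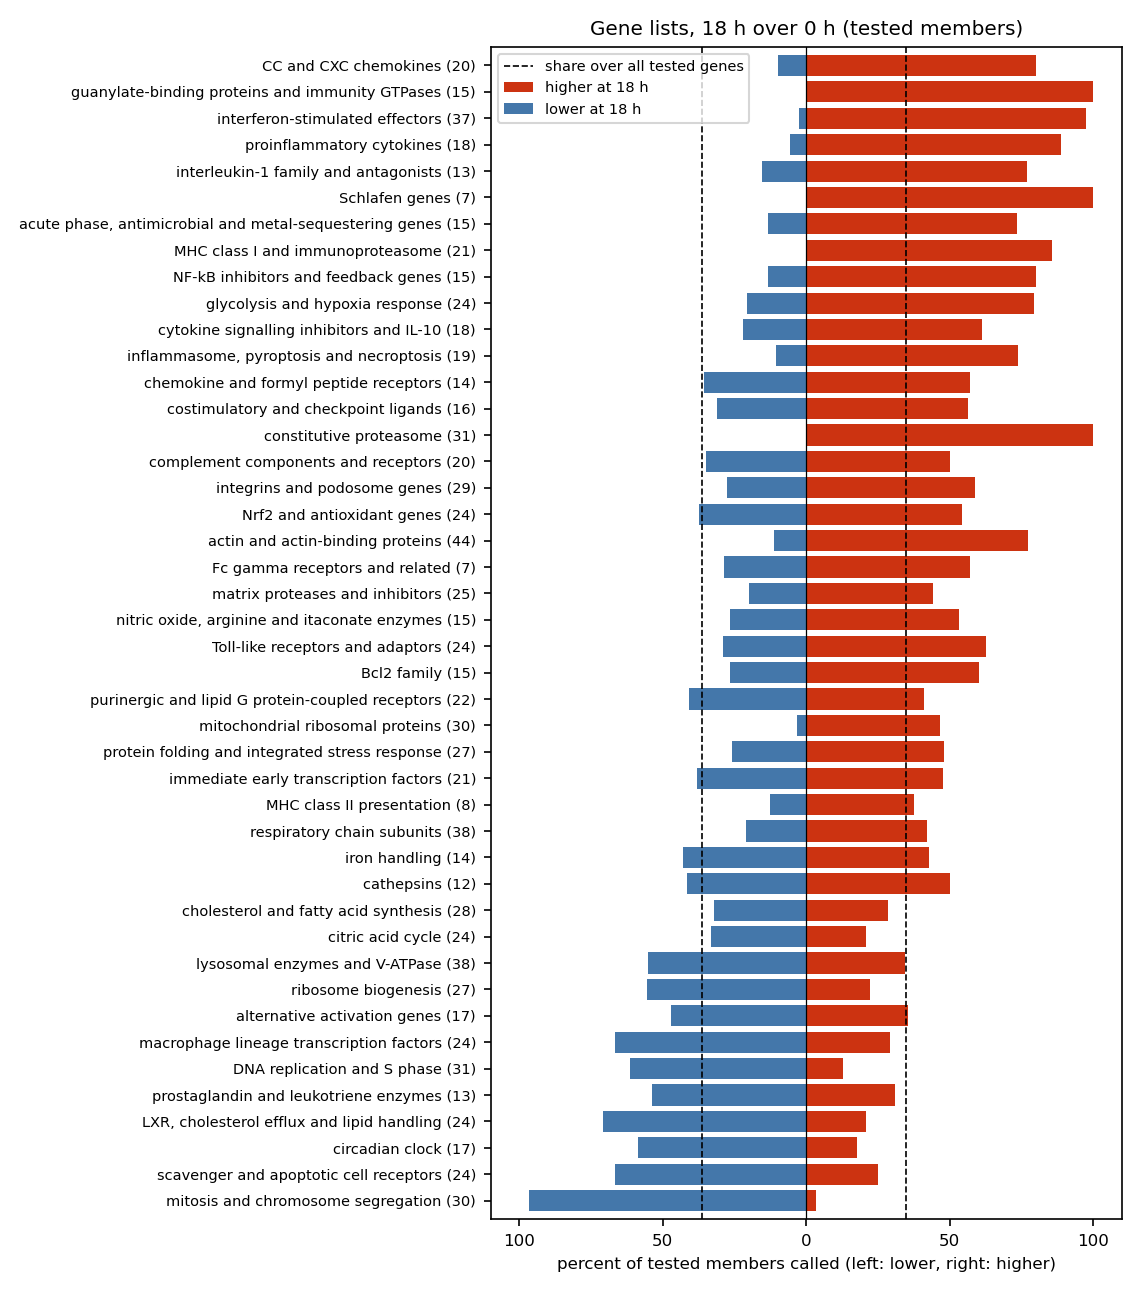
Percent of tested members of each of 44 gene lists that rose (red, to the right) or fell (blue, to the left) at 18 h, ordered by median log2 fold change, with tested members in brackets and dashed lines at the shares over all tested genes (34.8% and 36.3%). Chemokine and interferon lists lie at the top and the mitosis list at the bottom.

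Of 13 tested members of the interleukin-1 family, 10 rose and 2 fell. Il1b was at 10.2, 10.1, 15.9 and 14.8 CPM at 0 h and 1150.1, 842, 771 and 979.6 CPM at 18 h (log2 fold change 6.21, SE 0.24, edgeR adjusted p = 1.5e-15), and Il1a at 3.58 to 5.78 CPM and 208 to 295 CPM. Il1rn, which encodes the secreted antagonist of both, was at 33, 40.4, 30.2 and 47.4 CPM at 0 h and 4396, 4208, 5068 and 5435 CPM at 18 h (log2 fold change 6.98, SE 0.18, edgeR adjusted p = 1.0e-17). From 4 h to 18 h the agonists and the antagonist moved in opposite directions: Il1b (log2 difference -1.26, SE 0.19, edgeR adjusted p = 4.0e-06) and Il1a (log2 difference -2.34, SE 0.17, edgeR adjusted p = 4.0e-11) came down while Il1rn went further up (log2 difference 1.37, SE 0.14, edgeR adjusted p = 2.5e-08). The members that fell were the receptor Il1rl1, which binds interleukin-33 (-5.08 on the log2 scale), and the interleukin-18 receptor subunit Il18rap (-2.5).

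Chemokines rose in 16 of 20 tested cases, with the highest median of the lists (4.9). Ccl5, a chemokine that attracts T cells and monocytes, was at 8.68, 2.71, 9.76 and 18.1 CPM at 0 h and 4942, 4212, 4177 and 4644 CPM at 18 h (log2 fold change 8.85, SE 0.53, edgeR adjusted p = 2.3e-12). The ligands of CXCR3 rose together, with log2 fold changes of 6.9 for Cxcl10, 7.06 for Cxcl9 and 9.84 for Cxcl11. Ccl7, a monocyte attractant, rose by 7.26. The constitutive chemokines Ccl6 (-2.14) and Cxcl14 (-0.87) fell. Among 14 tested chemokine and formyl peptide receptors 8 rose and 5 fell: Fpr1, a receptor for bacterial formyl peptides, was at 0.745, 0.687, 1.36 and 2.2 CPM at 0 h and 439.6, 352, 334 and 417 CPM at 18 h (log2 fold change 8.36, SE 0.52, edgeR adjusted p = 4.7e-12), and Fpr2 rose by 7.27. Cxcr4, the receptor of the marrow retention chemokine CXCL12, was at 110.2, 111, 131 and 122 CPM at 0 h and 1.34, 2.19, 1.53 and 1.25 CPM at 18 h (log2 fold change -6.18, SE 0.20, edgeR adjusted p = 1.3e-16). The groups of Fpr1 and Cxcr4 were separated in opposite directions, and both genes belong to the sets chosen for separation. Cx3cr1, the fractalkine receptor, was at 13.2 to 24.1 CPM at 0 h and 2.5 to 3.95 CPM at 18 h (-2.4).

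**Figure D3:**
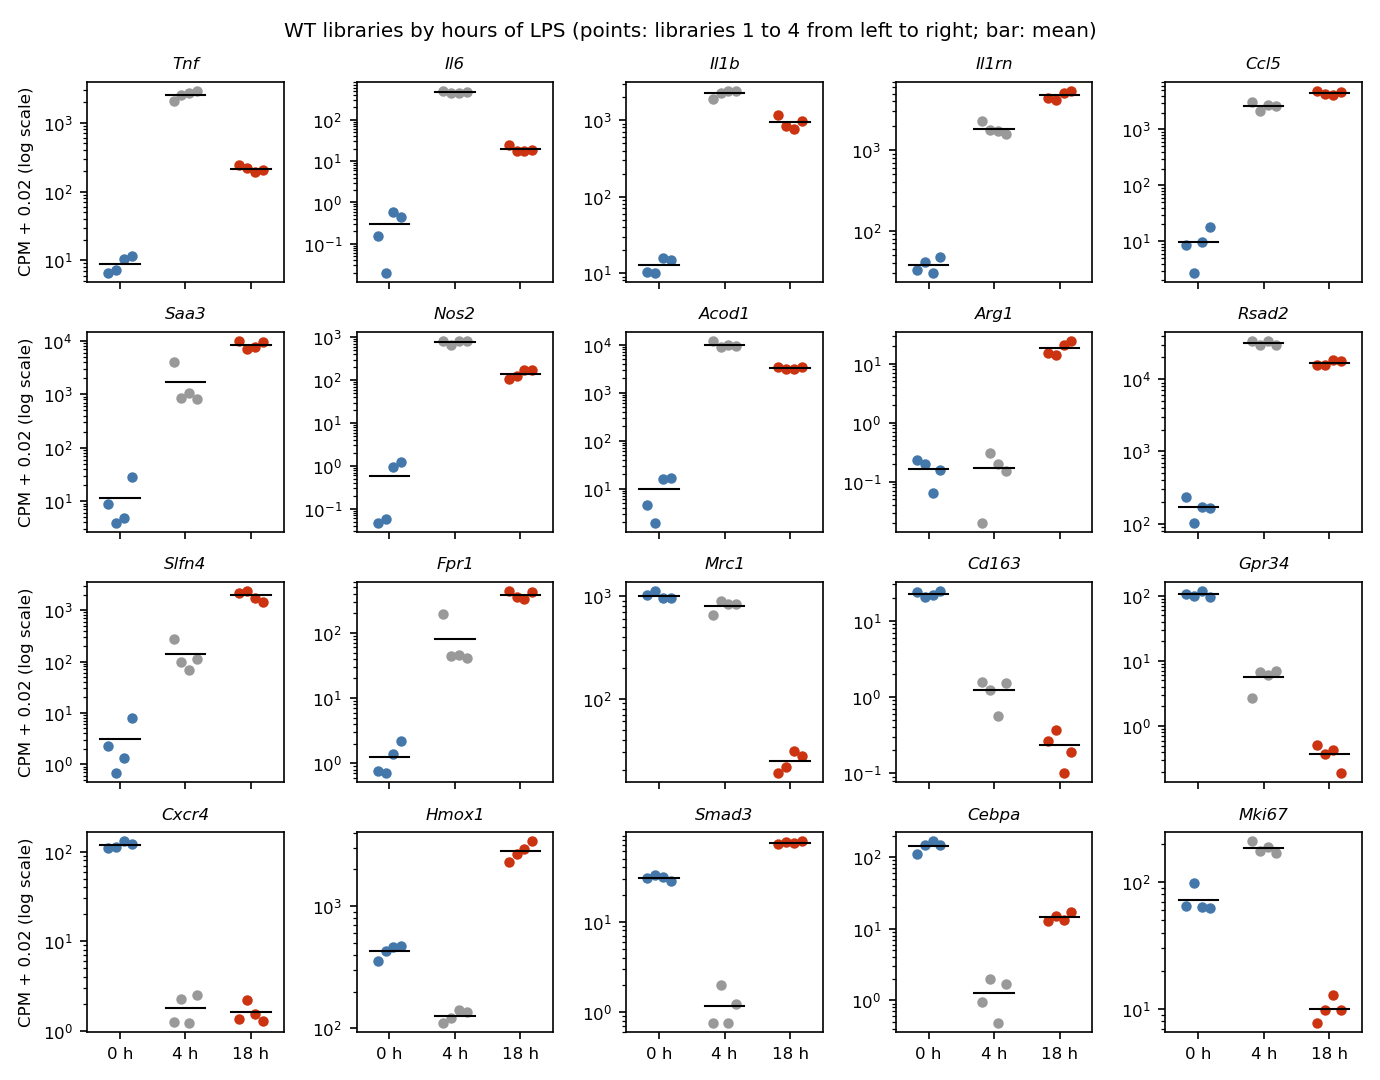
Level of 20 genes in the 12 WT libraries at 0, 4 and 18 h of LPS, in CPM with an offset of 0.02 on a log axis, 1 point per library and a bar at the group mean (n = 4). Tnf, Il6 and Il1b are highest at 4 h, Saa3, Arg1, Hmox1 and Il1rn are highest at 18 h, and Mrc1, Cd163 and Gpr34 are lowest at 18 h.

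Interferon-stimulated genes rose nearly without exception: 36 of 37 effectors, all 15 guanylate-binding proteins and immunity GTPases, and all 7 Schlafen genes rose, with medians of 3.41, 4.18 and 3.04 against -0.05 over all tested genes. Under upper-quartile scaling 14 of the 15 GTPases rose, and the counts of the other 2 lists were as before. Rsad2 was at 231, 102, 170.2 and 167 CPM at 0 h and 15971, 15686, 18560.4 and 17623 CPM at 18 h (log2 fold change 6.66, SE 0.26, edgeR adjusted p = 2.4e-15). Irf7, the transcription factor that extends interferon production, was at 84.1, 29.9, 43.4 and 49.2 CPM at 0 h and 2470.1, 2389.9, 2574 and 2671 CPM at 18 h (log2 fold change 5.61, SE 0.35, edgeR adjusted p = 5.0e-12). Number 1 was the highest library at 0 h for both, and still lay well below all 4 libraries at 18 h. The summed level of the 37 effectors ran from 2598 to 4566 CPM at 0 h and from 53582 to 61019 CPM at 18 h. The effector that fell was Irf8, a lineage transcription factor of macrophages that is also interferon-inducible: it stood at 177 to 198 CPM at 0 h, 747 to 858 CPM at 4 h and 83.4 to 87.9 CPM at 18 h. Slfn4, known from myeloid cells, rose from 2.26, 0.651, 1.31 and 7.97 to 2163, 2362, 1744 and 1464 CPM (log2 fold change 9.37, SE 0.64, edgeR adjusted p = 2.3e-11). Guanylate-binding proteins such as Gbp2 (5.44), Gbp5 (4.79) and Tgtp1 (7.04), and the Schlafen genes, are families with near-identical copies, so the split of reads among members is uncertain.

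Promoters of these genes are shown because the ISRE core was found in every promoter of that GTPase list that could be searched. Stretches of 110 bases from RefSeq promoters (GRCm38.p6, which is mm10), 5′ to 3′ on the gene's strand, carry in capitals the match on either strand to the core, a GAAA repeated after a gap of 2 bases of any kind. They come from the effectors and GTPases with the largest rises that had a match before the start.
Rsad2: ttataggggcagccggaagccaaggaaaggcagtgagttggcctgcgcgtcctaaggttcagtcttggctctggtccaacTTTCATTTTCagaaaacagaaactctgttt
Isg15: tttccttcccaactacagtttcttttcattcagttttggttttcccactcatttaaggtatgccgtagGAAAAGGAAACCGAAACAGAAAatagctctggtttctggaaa
Tgtp1: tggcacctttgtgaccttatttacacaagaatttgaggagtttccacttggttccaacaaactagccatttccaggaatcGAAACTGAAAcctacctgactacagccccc
Gbp2: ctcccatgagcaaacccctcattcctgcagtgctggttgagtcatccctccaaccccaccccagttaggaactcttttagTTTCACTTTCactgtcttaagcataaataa
Gbp5: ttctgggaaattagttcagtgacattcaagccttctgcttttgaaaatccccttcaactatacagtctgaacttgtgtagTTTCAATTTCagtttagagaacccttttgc
They lie at chr12:26456543-26456652 (minus strand), chr4:156200855-156200964 (minus), chr11:48992294-48992403 (minus), chr3:142620524-142620633 (plus) and chr3:142496689-142496798 (plus), with the match beginning 120, 78, 77, 59 and 165 bases before the annotated start. In Isg15, the ubiquitin-like interferon product, 3 matches overlap in tandem. Rsad2, Gbp5 and Gbp2 carry the core on the opposite strand, where it reads as TTTC repeats. In windows of 250 bases before to 50 after the start, the core was in 8 of the 8 GTPase-list genes with a RefSeq promoter, 13 of 29 effectors (44.8%, or 9 of 29 in the 250 bases before the start alone) and 3 of 7 Schlafen genes, against 414 of 9984 tested genes with a promoter (4.15%) and 3.99% of all RefSeq genes. Among genes that rose at least 16-fold it was in 40 of 233 (17.2%), and among those that fell at least 16-fold in 5 of 177 (2.82%). A match describes the letters of the window and not binding.

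**Figure D4:**
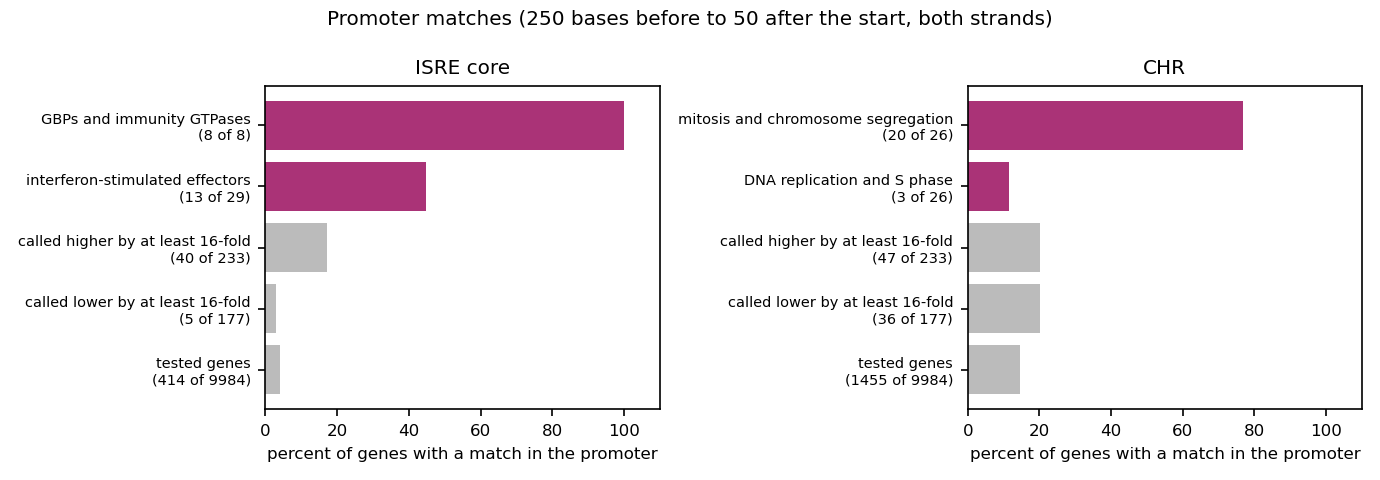
Percent of genes with a match to the ISRE core (left) or to the CHR element (right) in the RefSeq promoter, by list, for genes that rose or fell at least 16-fold and for all tested genes with a promoter, with counts in brackets. The ISRE core stands at 8 of 8 in the GTPase list against 4.15% of tested genes, and the CHR element at 20 of 26 in the mitosis list against 14.6%.

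Of 15 tested NF-kB inhibitors and feedback genes 12 rose and 2 fell at 18 h, 10 and 3 under upper-quartile scaling. Against 4 h, 11 of the 15 were lower at 18 h and 4 higher, and their summed level was 424 to 467 CPM at 0 h, 8699 to 9513 CPM at 4 h and 1757 to 1967 CPM at 18 h. Nfkbia, which encodes the inhibitor IkB alpha, was at 38.5, 31.7, 41.6 and 40.1 CPM at 0 h and 376, 313, 314 and 323 CPM at 18 h (log2 fold change 3.13, SE 0.09, edgeR adjusted p = 4.0e-17). Nfkbiz, a nuclear IkB protein, rose by 3.89 on the log2 scale, and Irak3, which blocks TLR signalling at the IRAK step, by 2.85. Irak3 was higher at 18 h than at 4 h (log2 difference 1.07, SE 0.18, edgeR adjusted p = 2.4e-05), whereas Nfkbia was lower (log2 difference -1.96, SE 0.09, edgeR adjusted p = 1.9e-14). Among 18 tested cytokine signalling inhibitors and IL-10 genes, 11 rose and 4 fell. Socs3, which limits signalling through STAT3, rose from 2.42, 2.03, 4.86 and 3.8 to 335, 273, 296 and 329 CPM (log2 fold change 6.59, SE 0.24, edgeR adjusted p = 7.7e-16), and Il10 from 2.74, 1.48, 1.75 and 1.12 to 33.1, 25.2, 28.8 and 31.8 CPM (log2 fold change 4.0, SE 0.29, edgeR adjusted p = 6.7e-11). The members that fell included Zfp36l1 (-2.42) and Zfp36l2 (-1.95), RNA-binding proteins that promote decay of AU-rich mRNAs. A kB site, GGG and TTTCC with 2 bases of any kind between them, was in 3 of 14 promoters of the feedback list and 4 of 14 of the chemokine list, against 2.09% of tested genes. It is shown for the largest rise with a match before the start in each, Nfkbia at chr12:55492648-55492757 (minus strand) and the neutrophil attractant Cxcl3 at chr5:90785948-90786057 (plus strand), with the match on either strand in capitals.
Nfkbia: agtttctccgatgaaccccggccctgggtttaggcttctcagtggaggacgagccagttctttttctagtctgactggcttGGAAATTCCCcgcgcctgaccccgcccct
Cxcl3: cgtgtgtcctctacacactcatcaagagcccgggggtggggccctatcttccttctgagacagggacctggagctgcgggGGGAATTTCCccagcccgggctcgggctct
Cxcl3 itself was at 0 to 0.0876 CPM at 0 h and 1.05 to 1.77 CPM at 18 h.

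Of 21 immediate early transcription factors 10 rose and 8 fell, or 7 and 8 under upper-quartile scaling. These counts are not far from the shares over all tested genes (34.8% rises and 36.3% falls). Junb was at 39.4 to 43.7 CPM at 0 h and 213 to 219.5 CPM at 18 h (2.38), and Klf6 at 271 to 316 and 1215 to 1357 CPM (2.18). The serum-response genes Egr2 (-3.36), Egr3 (-5.75) and Fosb (-4.17) fell. Nr4a1, encoding Nur77, was at 13.4, 16.2, 15.2 and 14 CPM at 0 h and 1.04, 1.33, 0.965 and 1.08 CPM at 18 h (log2 fold change -3.7, SE 0.36, edgeR adjusted p = 6.5e-09). All 4 untreated libraries were thus above all 4 treated ones, and at 4 h the level was 1.3 to 7.25 CPM. Fos was at 54.3 to 64 CPM and 67.1 to 70.9 CPM, which edgeR did not call (adjusted p = 0.17).

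Effector enzymes changed by branch. Nos2, the inducible nitric oxide synthase, was at 0.0266, 0.0362, 0.919 and 1.22 CPM at 0 h and 105, 123, 170.0 and 171 CPM at 18 h (log2 fold change 8.24, SE 0.41, edgeR adjusted p = 1.2e-13), after 664 to 828 CPM at 4 h. Acod1, which makes itaconate from cis-aconitate, was at 4.63, 1.92, 16.1 and 17 CPM at 0 h and 3390.1, 3104, 3070.4 and 3390.5 CPM at 18 h (log2 fold change 8.38, SE 0.50, edgeR adjusted p = 1.9e-12). At 0 h numbers 3 and 4 were the higher libraries for both genes, at levels far below any library at 18 h. Arg1, arginase 1, which competes with nitric oxide synthase for arginine, was at 0.213, 0.181, 0.0438 and 0.141 CPM at 0 h, 0, 0.281, 0.183 and 0.134 CPM at 4 h and 14.9, 14.2, 20.5 and 24.4 CPM at 18 h (log2 difference 7.04, SE 0.51, edgeR adjusted p = 5.8e-11 for 18 h against 4 h). Its libraries at 0 h and 4 h overlapped, and all 4 at 18 h lay above both. Ass1, which regenerates arginine from citrulline, rose by 6.0. The polyamine enzymes Srm (-1.09), Sms (-0.66) and Sat1 (-0.90) fell, as did Spr, of tetrahydrobiopterin synthesis (-0.79).

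In prostaglandin synthesis, the inducible enzymes Ptgs2 (5.71) and Ptges (8.61) and the phospholipase Pla2g4a (2.44) rose. The constitutive cyclooxygenase Ptgs1 fell from 48.1, 51.8, 59.9 and 51.3 to 1.59, 1.29, 1.85 and 1.19 CPM (log2 fold change -5.19, SE 0.14, edgeR adjusted p = 1.6e-17). Ptges was at 0.506, 0.362, 0.963 and 0.844 CPM at 0 h and 291, 193, 215 and 307 CPM at 18 h, so the libraries of the terminal synthase and of Ptgs1 separated in opposite directions. Ptges is among the largest rises, which were chosen for separation. Genes of leukotriene synthesis, Ltc4s (-5.27) and Alox5ap (-1.51), fell. In all, 4 of 13 tested genes of this list rose and 7 fell.

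Acute phase and antimicrobial genes rose in 11 of 15 tested cases. Saa3 was at 8.68, 3.87, 4.73 and 28.1 CPM at 0 h and 10065, 6986, 7594 and 9598 CPM at 18 h (log2 fold change 9.58, SE 0.78, edgeR adjusted p = 3.7e-10). Lcn2, which sequesters bacterial siderophores, was at 0.798, 0.977, 2.06 and 2.3 CPM at 0 h and 195, 143, 157 and 230.5 CPM at 18 h (log2 fold change 6.97, SE 0.27, edgeR adjusted p = 1.6e-15). Lcn2 is also one of the neutrophil markers, of which Csf3r (1.05), S100a9 (0.85) and S100a8 (0.84) rose too. The granule genes Mpo, Elane and Ctsg were at 0 CPM in all 4 libraries at 18 h. They, Prtn3 and Ly6g were not tested for lack of counts. The other 5 tested markers, among them the granule genes Ngp, Camp, Ltf and Mmp8, neither rose nor fell. The part of neutrophils in these values was not tested. The metallothioneins Mt1 (-2.62) and Mt2 (-1.54) fell below their untreated level, though at 4 h they stood at 104 to 112 and 118 to 137 CPM against 51.4 to 60.3 and 8.14 to 9.99 CPM at 0 h. Of 20 complement genes 10 rose and 7 fell, against 34.8% and 36.3% of all tested genes. The activating components C3 (5.02) and Cfb (7.97), factor B of the alternative pathway, rose. Of the membrane inhibitors, Cd55 rose (4.11) and Cd59a fell (-1.07).

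Iron genes had as many rises as falls (6 of 14 each, or 6 rises and 7 falls under upper-quartile scaling). Over all tested genes the shares were 34.8% and 36.3%. Fth1 rose from 6078, 5901, 5675 and 5863 to 28527, 29887, 28769 and 31314 CPM (log2 fold change 2.33, SE 0.09, edgeR adjusted p = 3.3e-15). Hmox1, which releases iron from haem, was at 358, 433, 464 and 474 CPM at 0 h, 110.1, 121, 140.3 and 135 CPM at 4 h and 2286, 2660.5, 2937 and 3412 CPM at 18 h (log2 fold change 2.71, SE 0.12, edgeR adjusted p = 2.0e-14). It was lower at 4 h and higher at 18 h than in untreated cells, with no overlap among the 3 times. Spic, a transcription factor known from haem-handling red pulp macrophages, rose by 3.35, and Slc11a1, the phagosomal metal transporter NRAMP1, by 1.36. Genes of iron uptake and release fell: Tfrc, the transferrin receptor (-1.97), Trf, transferrin itself (-2.99), and Slc40a1, the iron exporter ferroportin (-2.34), which stood at 739 to 941 CPM at 0 h, 12 to 25.8 CPM at 4 h and 139.8 to 204 CPM at 18 h. Among 24 Nrf2 and antioxidant genes 13 rose, led by the cystine transporter Slc7a11 (4.48) and mitochondrial Sod2 (4.26), and 9 fell, led by Gpx3 (-3.29). Nfe2l2, which encodes Nrf2, fell as well (-1.36).

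Sugar and mitochondrial genes moved differently. Of 24 tested glycolysis and hypoxia genes 19 rose and 5 fell (18 and 5 under upper-quartile scaling), with a median of 1.5. Pfkfb3, which makes the activator of phosphofructokinase, was at 37.8, 40.2, 39.8 and 38.3 CPM at 0 h and 378, 375, 445 and 468 CPM at 18 h (log2 fold change 3.42, SE 0.11, edgeR adjusted p = 6.9e-17). The glucose transporter Slc2a1 (2.38), lactate dehydrogenase Ldha (1.61) and the lactate exporter Slc16a3 (2.71) rose. The members that fell were not glycolytic enzymes but Vegfa, an angiogenic factor (-2.03), Ndrg1 (-1.62), the monocarboxylate carrier Slc16a1 (-1.56), the pyruvate dehydrogenase kinase Pdk1 (-1.26) and the glucose transporter Slc2a3 (-0.53), named for completeness after its values were seen, whose call was lost when any of 5 libraries was left out (edgeR adjusted p of 0.0526 to 0.137).

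Of 24 citric acid cycle genes 5 rose and 8 fell, with a median of -0.01. Upper-quartile scaling gave 4 rises and 12 falls with a median of -0.19, and median-of-ratios scaling 8 and 8 with a median of 0.01. The deepest falls were those of 2 isocitrate dehydrogenases. Idh1, the cytosolic enzyme, was at 277, 299.6, 317 and 307 CPM at 0 h and 50.9, 49, 55.7 and 61.4 CPM at 18 h (log2 fold change -2.47, SE 0.08, edgeR adjusted p = 2.3e-16). Idh2, the mitochondrial NADP-linked enzyme, was at 46.6, 54.3, 54.8 and 47.8 CPM and 7.02, 7.51, 6.68 and 7.76 CPM (log2 fold change -2.8, SE 0.10, edgeR adjusted p = 9.9e-16). Suclg2 (-1.79), of succinyl-CoA synthetase, and fumarase Fh1 (-1.65) also fell, while Cs, citrate synthase, rose slightly (0.36). Respiratory chain subunits had 16 rises and 8 falls in 38 (10 and 11 under upper-quartile scaling), and mitochondrial ribosomal proteins 14 rises and 1 fall in 30 (7 and 6), so the balance of both lists depended on the scaling.

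**Figure D5:**
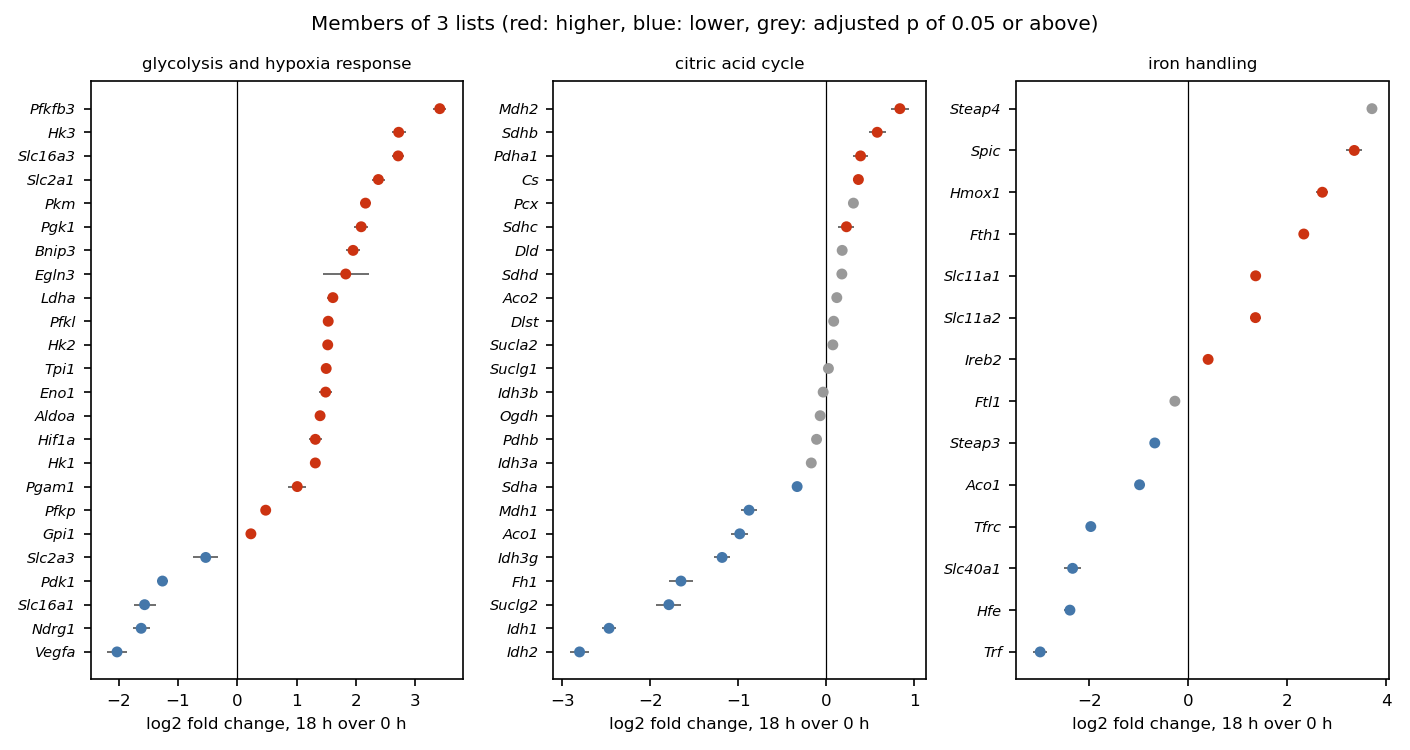
Log2 fold change, 18 h over 0 h, of each tested member of the glycolysis, citric acid cycle and iron lists (1 point per gene, with the standard error for called genes). Glycolysis genes lie mostly above 0, with 19 of 24 higher, whereas Idh1 and Idh2 are the lowest members of the citric acid cycle list.

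Lipid genes fell more often than they rose. Of 24 tested LXR, cholesterol efflux and lipid handling genes 17 fell and 5 rose. Pparg, a nuclear receptor of lipid uptake, fell from 37.3, 44, 39.5 and 49.7 to 6.53, 6.57, 8.61 and 7.53 CPM (log2 fold change -2.55, SE 0.11, edgeR adjusted p = 1.8e-14), and so did Fabp4, a fatty acid carrier (-3.47), and Angptl4, a lipase inhibitor (-7.44). Apoe, the apolipoprotein that accepts cholesterol (-1.05), and the efflux pump Abca1 (-1.02) fell. Nr1h3, which encodes LXR alpha, rose by 3.71, and Ch25h, which makes 25-hydroxycholesterol, rose from 0.266, 0.289, 0.35 and 0.187 to 12.3, 10.1, 13.5 and 10.1 CPM (log2 fold change 5.34, SE 0.41, edgeR adjusted p = 1.4e-10). The oxysterol enzymes Ch25h and Cyp27a1 hence moved in opposite directions, with no overlap between 0 h and 18 h for either. Cyp27a1 is among the deepest falls, which were chosen for separation. Sterol synthesis genes were mixed (8 of 28 higher and 9 lower, or 4 and 11 under upper-quartile scaling): Nsdhl, an enzyme of the sterol pathway (0.72), rose, and the fatty acid enzymes Elovl6 (-2.99) and Fads2 (-2.85) fell.

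Receptors that take up debris and apoptotic cells mostly fell (16 of 24 tested, with 6 rises). Mrc1, the mannose receptor CD206, was at 1014, 1120.3, 954 and 948 CPM at 0 h and 18.8, 21.7, 31.1 and 27.5 CPM at 18 h (log2 fold change -5.35, SE 0.16, edgeR adjusted p = 5.1e-17). At 4 h it had been at 659 to 886 CPM, so most of the fall came later. Cd163, the haemoglobin-haptoglobin receptor, was at 20.4 to 24.5 CPM at 0 h, 0.548 to 1.54 CPM at 4 h and 0.0804 to 0.352 CPM at 18 h. Gas6, the bridging ligand of the TAM receptors, fell from 606, 607, 627 and 602 to 19, 22.5, 19.8 and 19 CPM (log2 fold change -4.92, SE 0.09, edgeR adjusted p = 1.6e-19). Of the receptors it binds, Mertk fell (-0.77) and Axl rose (1.23). The scavenger receptors Marco, from 2.85, 1.81, 1.8 and 2.48 to 452, 467, 323 and 405 CPM (log2 fold change 7.5, SE 0.52, edgeR adjusted p = 2.6e-11), and Msr1 (2.77) rose. Among Fc receptors, the activating Fcgr1 (3.44) and Fcgr4 (3.28) rose more than the inhibitory Fcgr2b (0.62), a difference between genes that was not tested, and Fcgrt, the neonatal Fc receptor, fell (-2.9). Of 24 Toll-like receptors and adaptors 15 rose and 7 fell: Tlr3 (3.35) and Tlr1 (2.34) were higher and Tlr5 (-5.03) was lower. Tlr4 was at 204, 192, 204 and 161 CPM at 0 h and 136, 143, 179.7 and 147 CPM at 18 h, groups that overlapped (log2 fold change -0.33, SE 0.14, edgeR adjusted p = 0.035). The Tlr4 call was lost when any of 6 of the 8 libraries was left out, with edgeR adjusted p of 0.0564 to 0.102. Its co-receptor Cd14 rose (1.05).

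G protein-coupled receptors for purines and lipids had 9 rises and 9 falls in 22, against 34.8% and 36.3% over all tested genes. The adenosine receptor Adora2a, which restrains macrophage activation, rose from 0.0798, 0.109, 0.482 and 0.187 to 32.7, 26.5, 23.6 and 27.5 CPM (log2 fold change 7.11, SE 0.25, edgeR adjusted p = 5.2e-16), and Adora2b by 3.17. The sphingosine phosphate receptor S1pr1 (-2.63) and the ADP receptor P2ry1 (-3.64) fell. Of the ligands of T cells, Cd274, encoding PD-L1, rose from 65, 44.1, 48.9 and 52.3 to 1806, 2029, 2382 and 2197 CPM (log2 fold change 5.32, SE 0.13, edgeR adjusted p = 3.4e-18), and Cd40 rose by 4.23. Cd83 was at 179 to 206 CPM at 0 h, 676 to 1438 CPM at 4 h and 24.5 to 37.2 CPM at 18 h, so its level was highest at 4 h and lowest at 18 h.

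Antigen processing for class I rose broadly: 18 of 21 class I and immunoproteasome genes and all 31 constitutive proteasome genes rose (29 of 31 under upper-quartile scaling). Psma6, a ring subunit, was at 57.3 to 62.4 CPM at 0 h and 179 to 239 CPM at 18 h (1.84). The peptide transporter Tap1 (3.19), the class I transactivator Nlrc5 (3.07) and B2m (2.0) rose, as did H2-Q4 (3.91) and H2-Q7 (5.11), near-identical class I genes whose reads may be shared. Class II genes stayed low. Cd74, the invariant chain, was at 26.8 to 49 CPM at 0 h and 51.2 to 67.7 CPM at 18 h (0.63), and H2-Ab1 at 4.31 to 8.67 and 10.4 to 16.1 CPM (1.03). The class II transactivator Ciita, which is the member that fell and was singled out after its values were seen, was at 0.506 to 0.876 CPM at 0 h, 0.799 to 5.21 CPM at 4 h and 0 to 0.161 CPM at 18 h. In all 3 of 8 tested class II genes rose and 1 fell, 2 and 2 under upper-quartile scaling.

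Of 38 lysosomal enzymes and V-ATPase subunits 21 fell and 13 rose, against 36.3% and 34.8% of all tested genes. Of 12 cathepsins 5 fell and 6 rose (6 and 5 under upper-quartile scaling), not far from those shares. Hexa, a subunit of beta-hexosaminidase, fell from 1113, 1129.9, 1133 and 1155 to 246, 246, 243 and 259 CPM (log2 fold change -2.19, SE 0.06, edgeR adjusted p = 3.0e-17). Atp6v0d2, a V-ATPase subunit known from osteoclasts and macrophages, also fell (-4.87), as did cathepsin D, Ctsd (-1.53). Cathepsin C, Ctsc, which activates serine proteases, rose from 646, 533, 544 and 495 to 3636, 3626, 3829 and 3663 CPM (log2 fold change 2.73, SE 0.16, edgeR adjusted p = 1.1e-12), and Lamp2, a lysosomal membrane protein, by 1.41.

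Of 24 tested lineage transcription factors 16 fell and 7 rose. Cebpa was at 110.4, 147, 167 and 145 CPM at 0 h and 12.8, 14.9, 13.1 and 16.8 CPM at 18 h (log2 fold change -3.3, SE 0.16, edgeR adjusted p = 4.9e-14), and its family member Cebpb, induced in inflammation, was at 22.9, 18.1, 23.2 and 20.5 CPM and 119, 124, 127 and 125 CPM (log2 fold change 2.55, SE 0.09, edgeR adjusted p = 2.5e-16). Both C/EBP genes were separated between times, in opposite directions. Mef2c (-2.76) and Irf4 (-3.41) fell, and Spi1, which encodes the master regulator PU.1, rose (1.43). Of the 14 macrophage markers Adgre1 (1.74), Itgam (2.19), Fcgr1 and Cd14 rose, 9 fell, among them Csf1r (-1.85) and Lyz2 (-1.83), and C1qa was not called (edgeR adjusted p = 0.051, and 0.0338 to 0.0383 in DESeq2 and limma-voom, which called a rise). Every marker remained above 18 CPM in all 8 libraries. Of 17 tested alternative activation genes 8 fell, led by Clec10a (-7.33), Cd163 and Mrc1, and 6 rose, led by Arg1.

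Mitotic genes fell nearly without exception: 29 of 30 were lower, with a median of -2.95. Mki67, a proliferation marker, was at 64.8, 99, 63.4 and 61.9 CPM at 0 h, 209.9, 176, 189.7 and 170.1 CPM at 4 h and 7.69, 9.78, 12.8 and 9.74 CPM at 18 h (log2 fold change -2.87, SE 0.16, edgeR adjusted p = 4.5e-13). Most of the list did not share its higher level at 4 h. Between 4 h and 0 h edgeR called 3 of the 30 higher at 4 h and 24 lower, where 9786 of all 12529 tested genes were called in either direction. Summed mitotic genes were at 372 to 495 CPM at 0 h and 367 to 424 CPM at 4 h. Cenpa, the centromeric histone, fell from 43.9, 52.1, 58.5 and 60.4 to 1.71, 1.6, 2.65 and 2.1 CPM (log2 fold change -4.77, SE 0.23, edgeR adjusted p = 7.1e-14). Cyclin B1, Ccnb1 (-4.6), and the scaffold Anln (-4.53) fell likewise. The exception was the spindle factor Tpx2, at 15.3, 17, 13.3 and 16 CPM at 0 h and 62.2, 73, 89.8 and 67.1 CPM at 18 h (log2 fold change 2.25, SE 0.15, edgeR adjusted p = 9.3e-12), with all treated libraries above all untreated ones. DNA replication genes fell less uniformly, 19 of 31 with 4 rises. The ribonucleotide reductase subunit Rrm2 fell (-3.33), whereas the sliding clamp Pcna (0.74) and the licensing factor Cdt1 (1.08) rose.

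Promoters of the mitotic genes are shown because the cell cycle genes homology region (CHR), TTTGAA, was frequent among them. The CHR is bound by the DREAM and MuvB complexes, often near a CCAAT box. The 4 deepest falls of the list with a match before the start are printed as above, with the CHR match on either strand in capitals.
Ube2c: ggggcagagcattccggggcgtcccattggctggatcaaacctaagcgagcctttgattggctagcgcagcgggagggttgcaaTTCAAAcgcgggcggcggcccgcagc
Ccnb2: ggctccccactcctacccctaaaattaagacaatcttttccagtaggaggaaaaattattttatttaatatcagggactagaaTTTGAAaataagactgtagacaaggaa
Cdc20: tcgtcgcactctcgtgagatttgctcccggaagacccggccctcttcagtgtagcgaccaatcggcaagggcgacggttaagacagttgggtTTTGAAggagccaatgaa
Prc1: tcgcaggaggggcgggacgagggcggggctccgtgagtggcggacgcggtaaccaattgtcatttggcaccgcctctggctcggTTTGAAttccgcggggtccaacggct
They lie at chr2:164769816-164769925 (plus strand), chr9:70421695-70421804 (minus), chr4:118437344-118437453 (minus) and chr7:80294362-80294471 (plus), with matches 29, 167, 18 and 30 bases before the start. The genes encode the ubiquitin-conjugating enzyme and the co-activator of the anaphase-promoting complex (Ube2c, -4.4, and Cdc20, -4.28), cyclin B2 (Ccnb2, -4.3) and a midzone organiser (Prc1, -3.43). TTTGAA was in 20 of 26 mitosis-list promoters (76.9%) and 3 of 26 of the replication list (11.5%), against 14.6% of tested genes and 20.2% of all RefSeq genes. In the 250 bases before the start alone, TTTGAA was in 10 of 26 mitosis-list promoters (38.5%) against 13.1% of tested genes, so the share depended on the window. The Schlafen list (4 of 7) and the GTPase list (4 of 8) had the same counts in both windows. Their shares of 57.1% and 50% were thus above that of the mitosis list in the shorter window. CCAAT was also in 20 of 26 mitosis-list promoters, against 43.1% of tested genes. That was not particular to this list: the sterol synthesis (16 of 19), clock (13 of 16) and protein folding lists (21 of 26) had higher shares. Genes that fell at least 16-fold held TTTGAA in 36 of 177 cases and genes that rose at least 16-fold in 47 of 233.

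The cytoskeleton and adhesion lists rose on balance. Of 44 actin and actin-binding genes 34 rose and 5 fell (34 and 7 under upper-quartile scaling). Actb went from 4101, 4646, 4687 and 4566 to 15287, 15046, 14834 and 15874 CPM (log2 fold change 1.76, SE 0.08, edgeR adjusted p = 1.1e-14). The bundling protein Fscn1 (4.26), Vasp, which elongates filaments (2.26), and the membrane linker moesin, Msn (1.9), rose. Actn1, alpha-actinin (-2.19), and vinculin, Vcl (-1.52), which link filaments to focal adhesions, fell. Of 29 integrin and podosome genes 17 rose, led by cortactin, Cttn (4.26), and the integrins Itgal (3.78) and Itga5 (3.72), and 8 fell, led by Itgb3 (-3.96). Matrix genes included Mmp13, at 12.7 to 19.5 CPM at 0 h, 4151 to 6756 CPM at 4 h and 272 to 372 CPM at 18 h, the matricellular protein Thbs1 (2.51), and falls of urokinase, Plau (-3.12), and Timp2 (-2.84). Fibronectin, Fn1, overlapped between groups, at 19.4, 84.1, 11.2 and 10.2 CPM at 0 h and 5.13, 5.48, 11.7 and 7.02 CPM at 18 h (log2 fold change -2.14, SE 0.76, edgeR adjusted p = 0.016). Its highest library was number 2 at 0 h, which also held the most stromal marker RNA. Without that library the fold change was -0.95 with an edgeR adjusted p of 0.216, so the call rested on it, and limma-voom did not call Fn1 with all libraries (-1.69, adjusted p = 0.108).

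Of 19 inflammasome, pyroptosis and necroptosis genes 14 rose and 2 fell, with rises of the nucleic acid sensor Zbp1 (4.38), the necroptosis effector Mlkl (3.55) and Casp4, the intracellular LPS sensor caspase-11 (3.42). Of 15 Bcl2 family genes 9 rose and 4 fell. The survival members rose, Bcl2l1 by 1.43 and Bcl2a1d by 4.08 (a gene with near-identical copies). The death-promoting Bmf, which fell from 29.5, 31.8, 38.6 and 33.4 to 1.46, 1.13, 1.37 and 1.81 CPM (log2 fold change -4.54, SE 0.23, edgeR adjusted p = 1.9e-13), was joined by Bcl2l11 (-1.01) and Bbc3 (-1.0), while Bak1, a pore former of the outer mitochondrial membrane, rose (1.79). Of 27 genes of protein folding and the integrated stress response 13 rose and 7 fell, or 12 and 10 under upper-quartile scaling. Asns, asparagine synthetase (2.26), and Trib3 (3.12), both induced by ATF4, rose, and so did Hspa1a and Hspa1b, which have near-identical sequences. Members that fell included Ddit4, Herpud1, Dnajc3 and Ern1. Ribosome biogenesis genes fell in 15 of 27 cases, among them Npm1, nucleophosmin (-1.12). Clock genes fell in 10 of 17 tested cases, including Dbp, from 39, 32.6, 36.4 and 34.6 to 4.39, 3.95, 5.15 and 4.59 CPM (log2 fold change -2.99, SE 0.10, edgeR adjusted p = 3.1e-16), and Per3 (-2.98), whereas Per2 rose (1.39). Since 0 h and 18 h differ in LPS and may differ in hour of harvest and time in culture, these cannot be told apart. This holds for the clock list and for every other list and gene here.

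The 18 h state was then set against the 4 h libraries, which share no library with it. Between these times 8981 genes (71.7%) differed in edgeR, 4660 higher at 18 h (37.2%) and 4321 lower (34.5%). The cytokine list was lower at 18 h in 14 of 18 cases and the chemokine list in 13 of 20, whereas the constitutive proteasome was higher in 19 of 31. Several of the largest gains from 4 h to 18 h were in genes that lay below their untreated level at 4 h. Smad3, a transducer of TGF-beta, was at 30.8, 32.7, 31.2 and 28 CPM at 0 h, 0.738, 1.97, 0.731 and 1.21 CPM at 4 h and 72.8, 75.5, 74.9 and 78 CPM at 18 h (log2 difference 6.05, SE 0.17, edgeR adjusted p = 2.1e-17). Arhgap27, a GTPase-activating protein, was at 13.1 to 16.5 CPM, 1.39 to 4.06 CPM and 135 to 144 CPM at the 3 times (log2 difference 5.97, SE 0.20, edgeR adjusted p = 1.5e-16), and Gpr35, a receptor for kynurenate and related ligands, at 13.1 to 14.5 CPM, 1.03 to 4.67 CPM and 75.5 to 99.9 CPM (log2 difference 5.21, SE 0.27, edgeR adjusted p = 2.2e-13). In each the 3 times did not overlap, with 4 h lowest and 18 h highest. Separation of 18 h from 4 h was a condition of naming these genes. Levels were highest at 4 h for Adamts4, a matrix protease, at 0.0469 to 0.362 CPM, 81.6 to 207 CPM and 1.25 to 2.33 CPM (log2 difference -6.6, SE 0.33, edgeR adjusted p = 1.5e-13), and for the repressor Gfi1, at 0 to 0.0362 CPM, 16.3 to 41.2 CPM and 0.122 to 0.322 CPM (log2 difference -6.97, SE 0.38, edgeR adjusted p = 4.4e-13). Saa3 was at 4039, 869, 1045 and 812 CPM at 4 h, with number 1 the highest. Its difference between 18 h and 4 h was 2.34 on the log2 scale (edgeR adjusted p = 8.0e-04), and 3.24 without that library.

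The response of WT cells at 18 h was finally compared with that of labelled-KO cells through the interaction of genotype and LPS, which edgeR called for 2202 genes (17.6%), 1128 with a higher (more positive) log2 fold change in WT (9%) and 1074 with a lower one (8.57%). Differences in the untreated cells enter this test. Nr4a1 itself was at 12.2 to 12.4 CPM at 0 h and 2.1 to 3.48 CPM at 18 h in the labelled-KO libraries, so its RNA was detected, and a count per transcript does not show which part of the gene was read or check the label. Mitotic genes had the lower value in WT in 16 of 30 cases and the higher in none, and ribosome biogenesis genes the higher in 17 of 27 and the lower in none. Summed mitotic genes, Mki67 among them, were at 372 to 495 CPM at 0 h and 132 to 166 CPM at 18 h in WT. In labelled-KO libraries they were at 201 to 232 CPM and 181 to 196 CPM, so the genotypes differed more before LPS. Ribosome biogenesis genes summed to 1106 to 1316 and 808 to 917 CPM in WT, and to 994 to 1079 and 518 to 768 CPM in labelled-KO libraries. Nos2 rose less in WT: labelled-KO libraries were at 0.0493 to 0.265 CPM at 0 h and 552 to 900.5 CPM at 18 h (log2 difference of -3.79, SE 0.95, edgeR adjusted p = 0.0093), a difference that limma-voom did not call (-2.49, adjusted p = 0.221). Ptgs2 was at 0.493 to 1.37 CPM and 447 to 559 CPM in labelled-KO libraries against 0.506 to 4.2 CPM and 88.4 to 114 CPM in WT (log2 difference of -3.22, SE 0.55, edgeR adjusted p = 5.0e-04), and Slamf1, a self-ligand receptor of leukocytes, at 0 to 0.0985 CPM and 21.9 to 29.2 CPM against 0.187 to 0.438 CPM and 3.52 to 6.35 CPM (log2 difference of -5.29, SE 0.91, edgeR adjusted p = 5.2e-04). The labelled-KO level of Slamf1 at 0 h was near the floor, so the size of its difference is uncertain. The response was also smaller in WT for Il1rn (log2 difference of -1.5, SE 0.22, edgeR adjusted p = 1.4e-04) and the fall deeper for Mki67 (log2 difference of -1.53, SE 0.24, edgeR adjusted p = 2.3e-04). Cytip, which regulates leukocyte adhesion, was at 72 to 84.1 CPM at 0 h and 3.6 to 4.93 CPM at 18 h in WT, and at 35.7 to 43.4 CPM and 15.5 to 19.2 CPM in labelled-KO libraries (log2 difference of -3.14, SE 0.18, edgeR adjusted p = 6.6e-10). The response was larger in WT for Fscn1 (log2 difference of 1.99, SE 0.49, edgeR adjusted p = 0.008) and for Bmp1, a procollagen protease (log2 difference of 2.53, SE 0.53, edgeR adjusted p = 0.0029). Neutrophil markers summed to 407 to 492 CPM in WT and 625 to 760.1 CPM in labelled-KO libraries at 18 h, and stromal markers to 25.7 to 82.2 and 64.9 to 1118 CPM. Their part in these differences was not tested.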

How the data were processed

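RNA of bone marrow-derived macrophages was sequenced in 21 libraries. The submitters' processing notes name HISAT2 2.1.0, CASAVA 1.8.2 and the mm10 genome. For the counting tool and its strand setting, the sources used here give nothing. The authors deposited estimated counts, 1 row per RefSeq transcript and in 0.5 steps, which were rounded to whole numbers here. Of 42361 transcript IDs, 93 matched no gene and were left out (0.232% to 2.229% of counts per library). Each gene took its transcript with the highest mean count, giving 25067 genes. The design had assumed whole counts.

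edgeR 4.0.16 was fitted to all 21 libraries as 6 group means, with TMM factors and the filterByExpr filter, which left 12529 genes, by a script tested on simulated counts. Calls needed an adjusted p (Benjamini-Hochberg) under 0.05. A standard error is the log2 fold change over the root of the F statistic. Intervals of ratios are at 95% and cover counting error only. DESeq2 1.42.0 and limma 3.58.1 were alternatives, besides other scalings, filters, sample sets, transcript sums and left-out libraries. Replicate numbers did not pair 0 h with 18 h (correlations of deviations -0.12 to 0.18). Between 0 h and 4 h same-numbered libraries were more alike than others (0.23 to 0.32 against -0.23 to 0.09), which the main fit ignored.

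Named genes were the 14 largest rises and falls with at least 20 CPM and no overlap, up to 4 called members of each direction per list with at least 1 CPM, set genes and markers, the 6 largest differences of each sign between 18 h and 4 h and in the interaction (by level alone), and the 10 largest count shares. Genes whose promoters are printed were chosen by the largest change with a motif match. Members and lists were chosen with earlier results of these data known. Promoters of 9984 tested genes came from RefSeq (GRCm38.p6). Some genes are not reported here.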

Additional observations from a re-analysis of the deposited data

Results flagged for a closer look

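In 436 groups of 4 WT libraries, 1 group per gene and time, 29 had 1 library set apart from the other 3, where chance gives about 1 in 20. At 0 h number 1 was set apart most often. It was the highest library for B2m (2271 CPM), Bak1 (68.5 CPM), Mlkl (24.7 CPM), Klf6 (316 CPM), Zfp36l2 (252 CPM) and Per3 (18.0 CPM), and the lowest for Ctsd (7604 CPM), Ldha (169 CPM), Fos (54.3 CPM) and Mt2 (8.14 CPM). Number 2 at 0 h was the highest for Fn1 (84.1 CPM), Mki67 (99.0 CPM) and Cttn (1.59 CPM) and the lowest for Irf8 (177 CPM). It was also the highest for Gfi1, but at the floor (0.0362 CPM, with 0 CPM in the other libraries at 0 h). Number 3 at 0 h was the highest for Adora2b (1.93 CPM) and Slamf1 (0.438 CPM), and number 4 for Tarm1 (0.797 CPM).

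At 18 h number 1 was the highest for Nfkbia (376 CPM) and Il6 (24.7 CPM) and the lowest for Ccl6 (84.1 CPM) and Bcl2l11 (74.3 CPM). Number 2 was the lowest for Msr1 (1665 CPM), Ccl7 (777 CPM) and Casp4 (154 CPM) and the highest for Slco2b1 (0.0391 CPM, its single count). Number 3 was the highest for Tgtp1 (181 CPM) and Tlr5 (0.724 CPM), and number 4 for Ndrg1 (17.1 CPM).

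The response at 18 h differed between WT and labelled-KO cells, by the interaction test in edgeR, for each of the 8 genes whose difference is given above. The WT response minus the labelled-KO response was 2.53 for Bmp1 and 1.99 for Fscn1 on the log2 scale. It was -5.29 for Slamf1, -3.79 for Nos2, -3.22 for Ptgs2, -3.14 for Cytip, -1.53 for Mki67 and -1.50 for Il1rn. The size for Slamf1 is uncertain, since its labelled-KO level at 0 h was near the floor. These genes were picked for the size of their difference or from fixed names, so the 8 of 8 is no rate.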

How the results depend on the processing

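The counts of called genes stayed within 1.5 times the reported ones under every alternative run. Leaving out 1 library at a time gave 4201 to 4328 rises and 4327 to 4420 falls, 8647 to 8842 calls between 18 h and 4 h, 9563 to 9659 between 4 h and 0 h in WT, 8715 to 8940 between 18 h and 0 h in labelled-KO cells, and 1528 to 2201 for the interaction, lowest without labelled-KO 0 h number 3. Upper-quartile scaling gave 3516 rises and 5591 falls. With the replicate number as a replicate block there were 4431 rises, 4632 falls, 9085 calls between 18 h and 4 h, 9881 between 4 h and 0 h, 9260 in labelled-KO cells and 2414 for the interaction. Deviations of same-numbered WT libraries correlated at -0.12 to 0.18 between 0 h and 18 h, -0.03 to 0.12 between 4 h and 18 h and 0.23 to 0.32 between 0 h and 4 h. Differing numbers gave -0.34 to 0.34, -0.17 to 0.14 and -0.23 to 0.09 in that order. Of the 218 genes examined, 5 changed their call between 18 h and 0 h under some alternative (C1qa, Fn1, Fos, Slc2a3 and Tlr4), and none reversed direction. Of 972 list counts in the more frequent direction, 961 stayed within 1.5 times. With at least 5 CPM required in 3 libraries, fewer genes were tested, and rises in the interleukin-1 and complement lists numbered 6 each. Promoter shares moved in 20 of 288 cases when only the 250 bases before the start were searched, among them the share of the mitosis list with TTTGAA (38.5%).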
